A study of Rattus norvegicus with 6 samples.

Results

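The genes of the constitutive proteasome were examined in livers of hypercholesterolemic rats given a probiotic. Members were the probe sets whose array annotation gives exactly 1 symbol formed by Psma, Psmb, Psmc, Psmd, Psme, Psmf or Psmg and a number, with the immunoproteasome genes Psmb8, Psmb9 and Psmb10 left out. This gave 55 probe sets for 41 genes, out of 14218 genes with a symbol of their own on the array. They were 13 core particle genes, 6 base ATPases, 3 other base subunits, 8 lid subunits, 3 activators, 1 inhibitor and 7 assembly chaperones. Another 6 probe sets list several genes, and for this reason the catalytic subunit Psmb6 and the activator Psme3 are not among the members.

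All rats ate a fat-rich diet for 30 d and stayed on it for the next 30 d. In that second period both groups received 1 ml of saline each day by gavage, plain in the high-fat group (n = 3) and carrying Lactobacillus casei Zhang in the probiotic group (n = 3). No label states the strain, sex or age of the rats. The 6 liver samples are described as randomly picked, without a statement that each came from a separate rat, so p-values measure the spread between these samples.

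The proteasome is the protease that degrades proteins tagged with ubiquitin. Its core particle is a barrel of alpha and beta rings with the active sites on 3 beta subunits inside. A regulatory particle docks on its ends: the lid removes ubiquitin, and the ring of ATPases in the base unfolds the substrate and threads it into the barrel. Activators of the Psme family can dock in place of the regulatory particle, and dedicated chaperones assemble the parts. In hepatocytes the proteasome disposes of misfolded and short-lived proteins, among them regulators of sterol synthesis and apolipoprotein B.

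The 41 genes differed little between the groups. None passed the test over all 18625 probe sets tested (limma, smallest adjusted p = 0.726), where 4 probe sets, or 0.0215%, were called. By the brightest probe set of each gene, the largest difference was -0.434 on the log2 scale, or 1.35-fold, for the lid subunit Psmd13. The 95% interval of the difference lay within 2-fold in either direction for all 41 genes, against 62.1% of the 10573 genes tested. Under 17 other settings this count was 39 to 41, and with an RNA quality covariate it was 34. The members are bright, with a median signal rank at percentile 94.4, against 76.5 for all genes tested. Their median SE was 0.186, against 0.274. The shares of narrow intervals therefore do not compare genes of like signal. The core particle had the lowest median difference, -0.118, beside -0.0478 for the ATPases, -0.0128 for the lid and -0.0573 for the activators. This order did not hold with the RNA quality covariate, where the lid (-0.254) lay below the core (-0.237). With median centring of the arrays the medians of the ATPases, lid and activators turned to 0.0102, 0.0624 and 0.0215, while that of the core was -0.0951. The median of all genes tested was 0.0106, and it was 0.041 with median centring, above those of the ATPases and activators there.

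At an unadjusted p under 0.05 there were 2 genes, the alpha ring subunits Psma1 and Psma2, both lower in the probiotic group. That is 4.88% of the members, against 5.81% of all genes tested, of which 3.05% were lower and 2.75% higher. With 2 genes the share of members was near the background. The count over the 51 member probe sets tested was also 2, against 6.85% of all probe sets. It rose to 5 of 50 when probiotic sample 2 was left out, against 4.46% of all probe sets in that fit. Without high-fat sample 1 it was 3 of 50, against 8.19%. It was 1 when probiotic sample 1 (against 9.51%) or high-fat sample 3 (6.29%) was dropped. It was 0 for probiotic sample 3 (4.79%) or high-fat sample 2 (4.27%). Values of the groups did not overlap for 5 genes, all lower in the probiotic group, or 12.2% of members against 6.42% of all genes tested. They were Psma1, Psma2, the beta ring subunit Psmb2, the activator subunit Psme1 and the assembly chaperone Psmd5. No member had higher values without overlap, against 5.93% of all genes.

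**Figure D1:**
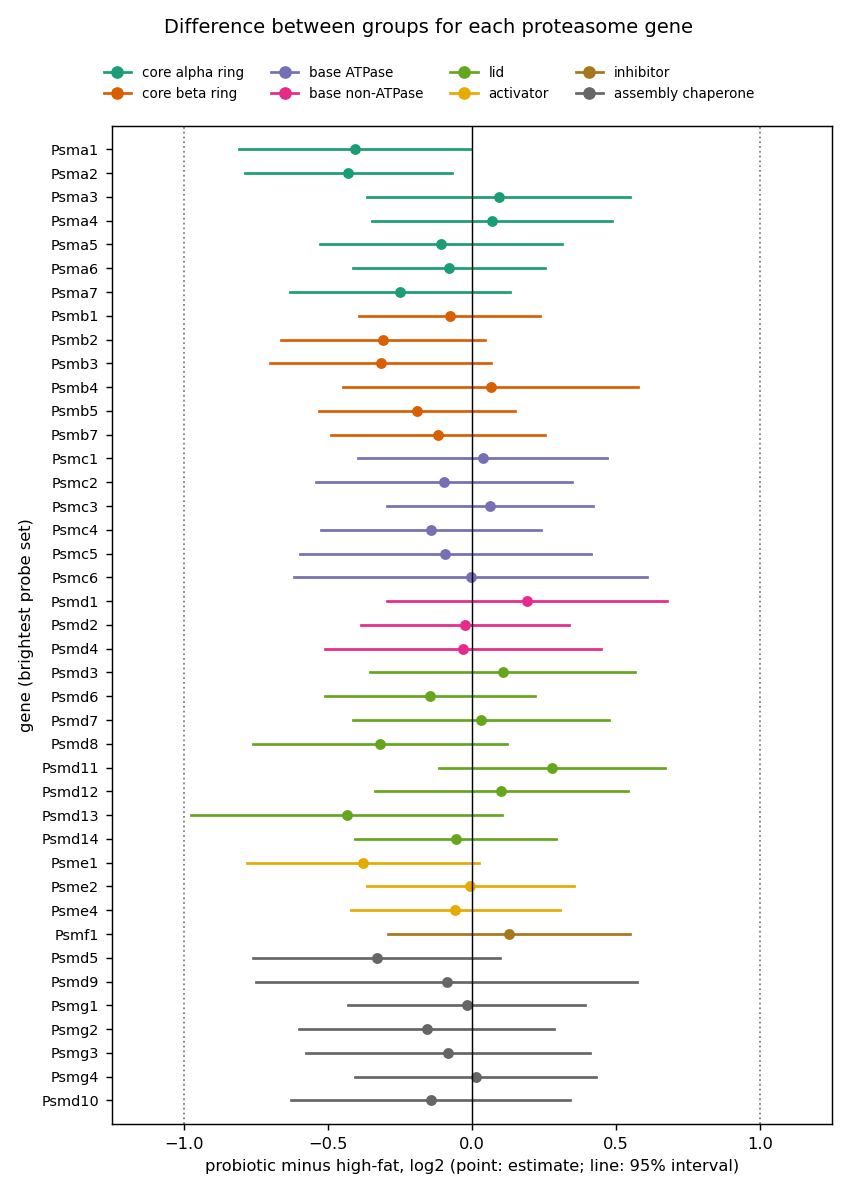
Difference between probiotic and high-fat samples on the log2 scale (horizontal axis) for each of 41 genes (vertical axis), coloured by role; points are estimates, lines 95% intervals from limma, and dotted lines mark 1 log2 unit either side of 0. All intervals stay between the dotted lines, and those of Psma1 and Psma2 alone leave out 0.

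Of the 41 genes, 29 had lower and 12 higher mean values in the probiotic group. The share of lower values was 70.7%, against 48.6% of all genes tested. This split depended on how the arrays were scaled, being 22 of 41 lower with median centring and 26 of 41 without normalization between arrays. Scaling also moved the median of all genes tested. Below that median lay 25 of 41 members in each of these settings, against 29 of 41 in the main fit. The count below 0 was 23 of 41 without probiotic sample 1 and 36 of 41 without probiotic sample 2. Over 19 other settings, 15 genes kept one sign throughout, and all 15 were lower. They were 8 of 13 core genes, 3 of 8 lid genes, 3 of 7 assembly chaperones, 1 of 6 ATPases and 0 of 3 activators. The settings share their samples and are not independent of each other, and genes whose groups do not overlap cannot turn sign when a sample is left out. Settings that changed only the filter, the variance model or the replicate block left the difference of a gene as it was. The share of all genes tested that kept one sign was not computed.

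The samples of a group differed by more than the groups did. The level of the members in a sample, taken as the median over the 41 genes of the log2 signal minus the gene's mean over all samples, was -0.163, 0.118 and -0.047 in probiotic samples 1, 2 and 3. It was 0.049, 0.103 and -0.022 in high-fat samples 1, 2 and 3. Probiotic sample 1 was the lowest and probiotic sample 2 the highest, so the probiotic group spanned the whole range. The group means differed by -0.0739 (probiotic minus high-fat), within the spread between samples of a group (pooled SD 0.109). Probiotic sample 1 held the lowest value of 21 of the 41 genes (51.2%, against 14.7% of all genes tested). Probiotic sample 2 held the highest value of 15 genes (36.6%, against 20.8%) and high-fat sample 2 of 13 (31.7%, against 23.1%).

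**Figure D2:**
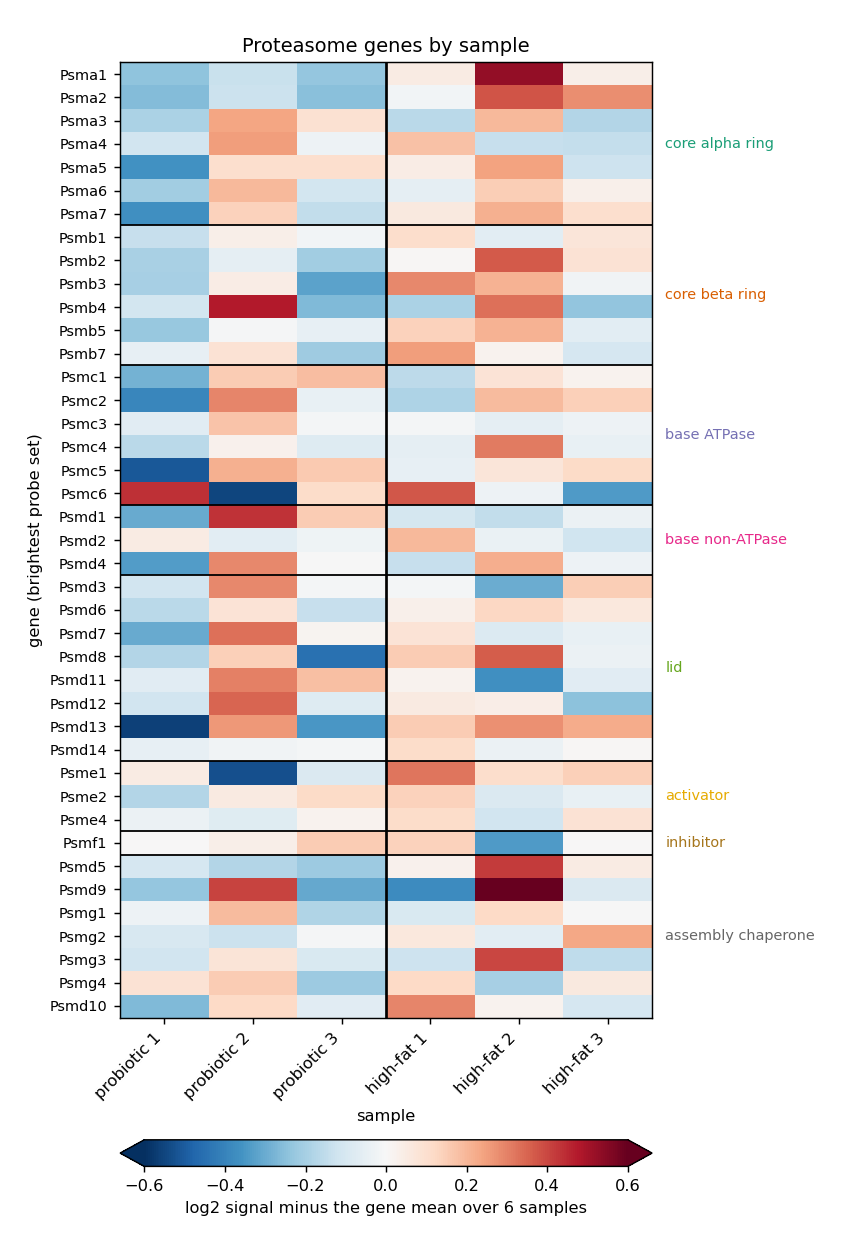
Log2 signal minus the gene's mean over the 6 samples (colour, red above and blue below the mean) for 41 genes (rows, by role) in each sample (columns, groups divided by the vertical line). Probiotic sample 1 is mostly blue, holding the lowest value of 21 genes, and probiotic sample 2 holds the highest value of 3 of 6 ATPases and 4 of 8 lid genes.

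Of the RNA quality controls on the array, that for Actb separated the groups and that for Gapdh did not. For Actb, the 3' control probe set exceeded the 5' one, by more where transcripts are shorter. This gap was 2.079, 3.066 and 2.394 log2 units in probiotic samples 1, 2 and 3, and 1.95, 1.477 and 1.969 in the high-fat samples. All probiotic values were above all high-fat values (difference 0.715, exact two-sided permutation p = 0.1, the smallest that 3 against 3 allow). The Gapdh gap was 0.667, 1.58 and 1.27 in the probiotic and 0.533, 0.496 and 0.754 in the high-fat samples, with overlap (difference 0.578, exact two-sided permutation p = 0.2). When the fit took in the Actb gap as a covariate, the members had a median difference of -0.200, and 38 of 41 genes were lower. The median of all genes tested was 0.0101 in that fit, and 40 of 41 members lay below it. As the Actb gap separates the groups, its part and that of the treatment cannot be told apart. Arrays correlated at 0.916 to 0.953 within groups and at 0.885 to 0.959 between groups, and median deposited signals ranged from 90.4 to 147.2. Along the leading principal component probiotic sample 2 (-51.59) was farthest from high-fat sample 2 (75.55).

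The liver label was checked on markers. The 9 hepatocyte markers tested had a median signal rank at percentile 99.9 of all probe sets, and 5 of 9 were lower in the probiotic group. Kupffer cell markers were lower in 9 of 9 genes tested, with summed signals of 11452 to 14491 in the probiotic and 14064 to 19243 in the high-fat group. Their median level, each gene centred on its mean, was -0.478 to -0.029 in the probiotic and 0.084 to 0.515 in the high-fat samples, without overlap. Of 5 neutrophil markers on the array, 3 were tested and lower, with summed signals of 275 to 483 against 630 to 1071. The other two lay below the signal filter. Of these Csf3r, the receptor of a granulocyte growth factor, had higher signals without overlap (62.9, 58.8 and 43.4 against 33.5, 14.4 and 4.3) and Camp overlapped. Erythroid markers had a positive difference in 4 of 5 genes, and their summed signals of 30472 to 53810 against 19961 to 26713 were mostly Hbb, a beta globin (28962 to 49053.1 against 18861.1 to 25009.1). The median erythroid level, each gene centred on its mean, was 1.139 in probiotic sample 2 and -0.765 to -0.015 in the other 5 samples, so the groups overlapped. Summed signals of endothelial, stellate, cholangiocyte and lymphocyte markers overlapped between groups, and no marker was listed at 0. The part of these cells in the proteasome values was not tested. In bulk liver, fewer cells of a type and less RNA per cell cannot be told apart.

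Proteasome genes are known to be induced together by the transcription factor Nfe2l1 when proteasome activity is short, through antioxidant response elements with the core TGACNNNGC. RefSeq promoters of assembly GRCr8 were matched for 37 of the 41 genes, and the 250 bases before the gene start were searched on both strands. The motif was present in 6 of 37 (16.2%), against 10.1% of all 33469 promoters in the table. Members entered with a single promoter per gene, while the background was every promoter and was not limited to genes on the array. The same holds for the other promoter comparisons below. These 6 genes are shown because they let the values be read beside a shared promoter sequence, with the match in capitals, read 5′ to 3′ on the gene's strand.
Psma3: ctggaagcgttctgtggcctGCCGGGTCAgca
Psmb2: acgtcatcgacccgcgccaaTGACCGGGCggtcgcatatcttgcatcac
Psmb5: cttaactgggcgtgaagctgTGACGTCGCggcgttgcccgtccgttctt
Psmd1: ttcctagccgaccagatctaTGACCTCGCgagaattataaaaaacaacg
Psmd9: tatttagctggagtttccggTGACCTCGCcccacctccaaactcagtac
Psme4: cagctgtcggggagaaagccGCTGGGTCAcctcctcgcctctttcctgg
Coordinates are those of each printed stretch with its flanks, and distances run from the first base of the match as printed. The match of Psma3 is on the reverse strand (chr6:95219717-95219748) and begins 12 bases before the gene start. That of Psmb2 (chr5:144254970-144255018) begins 68 bases before the start. That of Psmb5, a gene on the minus strand (chr15:32047411-32047459), begins 60 bases before the start. The matches of Psmd1 (chr9:94157786-94157834) and of Psmd9, on the minus strand (chr12:39018313-39018361), begin 165 and 77 bases before the start, and Psmd9 has another on the reverse strand at 124 bases. The match of Psme4 is on the reverse strand (chr14:108706568-108706616), 55 bases before the start.

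The 6 genes with this motif did not share a direction. The log2 differences were 0.0926 for Psma3 and 0.192 for Psmd1, and -0.307 for Psmb2, -0.190 for Psmb5, -0.0875 for Psmd9 and -0.0573 for Psme4. The box CCAAT, which the factor NF-Y binds, was present in 18 of 37 member promoters (48.6%, against 34% of all). The GC box GGGCGG was present in 27 of 37 (73%, against 30.5%), and the median GC content was 57.2% in the member promoters against 51.2% in all. A match of letters is a description and does not show that a factor binds there.

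In the alpha ring, which gates the entry of substrates, 5 of 7 genes had lower values in the probiotic group. Psma2 had log2 signals of 12.17, 12.30 and 12.18 in probiotic samples 1, 2 and 3 and of 12.416, 12.807 and 12.712 in high-fat samples 1, 2 and 3. The groups did not overlap, and the difference was -0.428 (SE 0.160, limma adjusted p = 0.726), or 1.35-fold. Psma1 had 11.884, 11.992 and 11.894 against 12.175, 12.652 and 12.16. Here high-fat sample 2 stood well above the rest, and the difference of -0.406 (SE 0.179, limma adjusted p = 0.728) was -0.245 without that sample. The differences of Psma7, Psma5 and Psma6 were -0.249, -0.108 and -0.0808, and those of Psma3 and Psma4 were 0.0926 and 0.0702. Probiotic sample 1 was the lowest sample for 6 of the 7 alpha genes.

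In the beta ring, 5 of 6 genes had lower values. Psmb2, a structural subunit of the ring, had log2 signals of 12.361, 12.501 and 12.348 in the probiotic samples and of 12.562, 12.925 and 12.646 in the high-fat samples. The groups were apart by a small margin, with a difference of -0.307 (SE 0.157, limma adjusted p = 0.735), which was -0.200 without high-fat sample 2. Psmb3, also structural, had a difference of -0.317 (SE 0.171), with probiotic sample 2 above high-fat sample 3.

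Of the catalytic subunits, Psmb5 and Psmb7 were measured by probe sets of their own. Psmb5, which carries the chymotrypsin-like site that proteasome inhibitor drugs block, had 12.45, 12.669 and 12.631 in the probiotic samples against 12.816, 12.886 and 12.617 in the high-fat samples. The groups overlapped through high-fat sample 3, and the difference was -0.190 (95% interval -0.529 to 0.149, limma adjusted p = 0.784). Psmb7, which carries the trypsin-like site, had 12.228, 12.361 and 12.063 against 12.528, 12.299 and 12.176. Its groups overlapped widely, with a difference of -0.118 (95% interval -0.489 to 0.254). Psmb1 and Psmb4 had differences of -0.0777 and 0.0656. The Psmb4 values were spread more (SD 0.392 for probiotic and 0.317 for high-fat samples, n = 3 each), with sample 2 the highest in both groups.

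**Figure D3:**
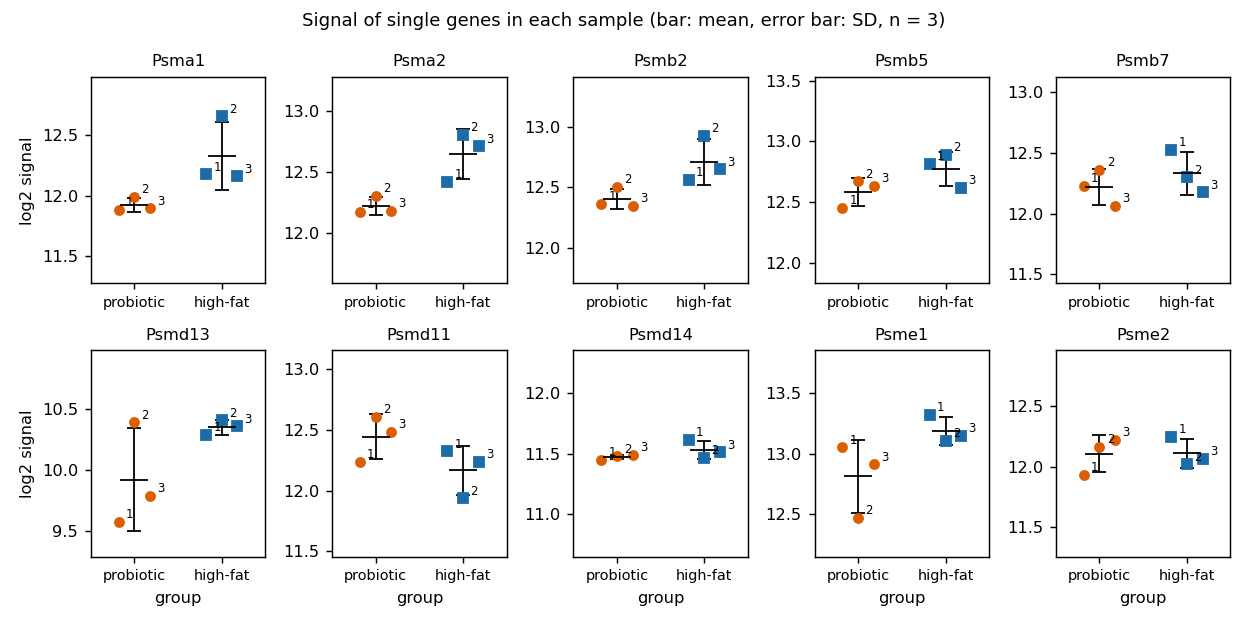
Log2 signal (vertical axes, all of the same span) of 10 genes in 3 probiotic (circles) and 3 high-fat samples (squares), numbered by sample, with the mean and SD. Psma1, Psma2, Psmb2 and Psme1 do not overlap between groups; in Psmd13 and Psme1 the probiotic samples are spread more widely than the high-fat ones.

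Of the ATPases of the base, 4 of 6 had lower values, with differences from -0.141 to 0.0627. Psmc4, the member of smallest p in this role, had 11.722, 11.913 and 11.81 in the probiotic samples against 11.829, 12.197 and 11.84 in the high-fat samples. The groups overlapped, and the difference was -0.141 (SE 0.170, limma adjusted p = 0.858), falling to -0.0207 without high-fat sample 2. Psmc2, Psmc5 and Psmc6 had differences of -0.0963, -0.0918 and -0.00382, and Psmc1 and Psmc3 of 0.0376 and 0.0627. All 3 Psmc6 probe sets lay between -0.0467 and -0.00382. Probiotic sample 1 was the lowest for 5 of the 6 ATPases and the highest for the remaining one, Psmc6.

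Among the other base subunits, Psmd1, a large scaffold, had 10.538, 11.274 and 10.991 in the probiotic samples and 10.735, 10.69 and 10.801 in the high-fat samples. The probiotic samples lay on both sides of the narrow high-fat range, and the difference was 0.192 (SE 0.216, limma adjusted p = 0.846). The scaffold Psmd2 and the ubiquitin receptor Psmd4 had differences of -0.0233 and -0.0311.

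The lid had 4 genes with lower and 4 with higher values. Psmd13, a structural lid subunit, had 9.573, 10.393 and 9.788 in the probiotic samples against 10.288, 10.41 and 10.359 in the high-fat samples. Probiotic samples 1 and 3 were low while probiotic sample 2 was within the high-fat range, and the difference was -0.434 (SE 0.240, limma adjusted p = 0.736). It was -0.264 without probiotic sample 1 and -0.865 when adjusted for the Actb gap. Psmd11, another structural subunit, had a difference of the opposite sign, with 12.241, 12.608 and 12.488 against 12.327, 11.939 and 12.239. Its groups overlapped, and the difference of 0.277 (SE 0.174, limma adjusted p = 0.747) was -0.0278 when adjusted for that gap. A further Psmd11 probe set gave 0.0562.

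Psmd14, the enzyme that cuts ubiquitin chains off the substrate, was measured by 3 probe sets that disagreed in size. The brightest had 11.45, 11.478 and 11.49 in the probiotic samples against 11.612, 11.465 and 11.51 in the high-fat samples, a difference of -0.0560 (SE 0.155). A dimmer one had 9.762, 9.862 and 9.761 against 9.998, 10.677 and 10.084, with no overlap and a difference of -0.458 (SE 0.228, limma adjusted p = 0.732). The dimmest gave -0.272. The other lid genes had differences of -0.319 for Psmd8, -0.146 for Psmd6, 0.107 for Psmd3, 0.102 for Psmd12 and 0.0305 for Psmd7, whose other probe set gave -0.205.

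The activators had values of 3 of 3 genes below 0. Psme1, a subunit of the activator that interferon gamma induces, had 13.051, 12.472 and 12.913 in the probiotic samples against 13.32, 13.104 and 13.145 in the high-fat samples. The groups were only just apart, with probiotic sample 2 far below the others. The difference was -0.378 (SE 0.178, limma adjusted p = 0.730), and a dim second probe set gave 0.539 (SE 0.652). Psme2, the partner of Psme1 in the same ring, had 11.932, 12.162 and 12.22 against 12.246, 12.019 and 12.065. Its groups overlapped widely, with a difference of -0.00502 (95% interval -0.365 to 0.355). Psme4, a separate large activator, had -0.0573, and its other probe sets gave -0.352 and 0.250.

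The inhibitor Psmf1 had 11.082, 11.115 and 11.233 in the probiotic samples against 11.218, 10.741 and 11.083 in the high-fat samples. High-fat sample 2 was low and the groups overlapped, with a difference of 0.130 (SE 0.186, limma adjusted p = 0.887).

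Of the assembly chaperones, 6 of 7 had lower values. Psmd5, which helps to build the base, had 10.38, 10.306 and 10.266 in the probiotic samples against 10.51, 10.901 and 10.534 in the high-fat samples. The groups did not overlap, and the difference was -0.331 (SE 0.190, limma adjusted p = 0.739). The other base chaperones, Psmd10 and Psmd9, had -0.143 and -0.0875, and a dim Psmd9 probe set gave 0.273. The chaperones of the core, Psmg1, Psmg2, Psmg3 and Psmg4, had differences of -0.0174, -0.157, -0.0843 and 0.0135.

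**Figure D4:**
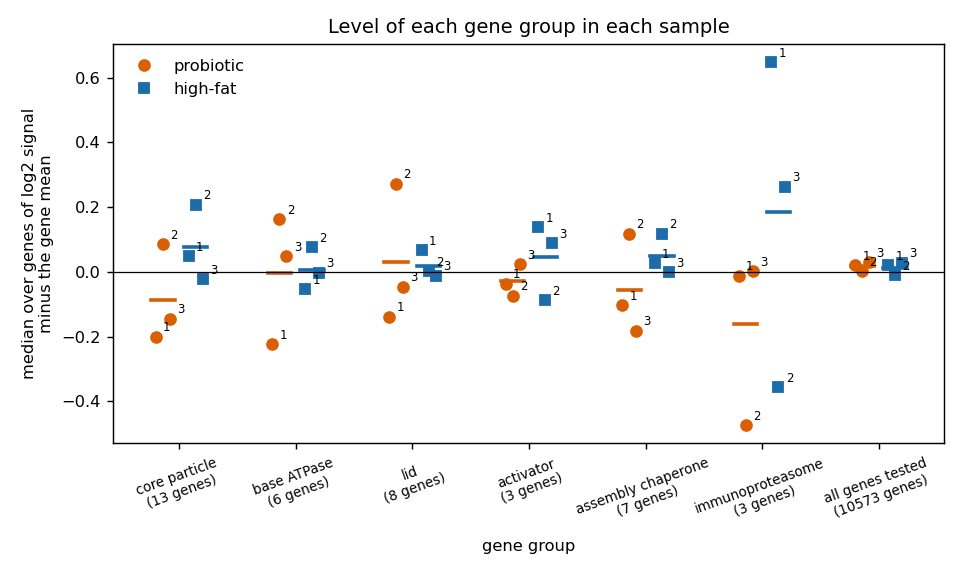
Level of each gene group in each sample (vertical axis: median over the group's genes of log2 signal minus the gene's mean) for probiotic (circles) and high-fat samples (squares), numbered by sample, with a bar at the group mean. The groups overlap for every gene group shown, and the immunoproteasome genes are spread most, from -0.473 to 0.648.

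Compared by role, the core particle lay at -0.2, 0.085 and -0.145 in probiotic samples 1, 2 and 3 and at 0.049, 0.208 and -0.022 in the high-fat samples. The lid lay at -0.138, 0.273 and -0.046 against 0.067, 0.002 and -0.012, and the ATPases at -0.223, 0.162 and 0.049 against -0.054, 0.077 and -0.003. Each role overlapped between the groups. Within a sample, the core minus the lid was -0.062, -0.188 and -0.099 in the probiotic and -0.018, 0.206 and -0.01 in the high-fat samples, without overlap. This contrast was picked after the values were seen and was not tested. With all probe sets of a gene averaged, the medians of core and lid were -0.118 and -0.116, nearly equal. The core minus the ATPases overlapped between groups.

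The immunoproteasome genes Psmb8, Psmb9 and Psmb10, whose products replace the catalytic subunits under interferon gamma, had differences of -0.431, -0.321 and -0.402, none past the test (limma adjusted p of 0.743 to 0.802). All 3 were highest in high-fat sample 1, as were the 3 activators. Of 9 genes of antigen processing and interferon response tested, 6 were lower by the brightest probe set and none of those probe sets had an unadjusted p under 0.05. The lowest differences were those of Erap1, which trims peptides for presentation (-0.331), and of the peptide transporters Tap1 (-0.320) and Tap2 (-0.346). A second Erap1 probe set had -0.680 (SE 0.211, limma unadjusted p = 0.0101, adjusted p = 0.726). Its signals were 1052, 1120.9 and 1073.3 in the probiotic and 1469, 1507 and 2348.3 in the high-fat samples, without overlap.

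Of the 9 partners and maturation factors tested, 3 were lower and 6 higher, and 0 passed the adjusted test with limma. Akirin2, which carries proteasomes into the nucleus, had an unadjusted p of 0.0353 and no overlap between groups. Its log2 signals were 8.922, 8.462 and 7.877 in the probiotic and 8.954, 9.73 and 9.005 in the high-fat samples, a difference of -0.809 (SE 0.329, limma adjusted p = 0.726). Uchl5, a deubiquitinase bound to the base, had 10.22, 10.641 and 10.71 against 10.169, 10.073 and 10.173, a difference of 0.385 (SE 0.201, limma adjusted p = 0.735), apart by a small margin. The scaffold Ecpas had 0.215 by its brightest probe set, higher in the probiotic group without overlap. Its 5 dimmer ones ranged from -1.02 to 0.526. The one at -1.02 had a limma unadjusted p of 0.0449 (adjusted p = 0.726), with overlap. The maturation factor Pomp, the deubiquitinase Usp14 and the ubiquitin receptor Adrm1 had differences of 0.0937, 0.0718 and -0.0257.

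Of 10 regulators of proteasome genes tested, 5 were lower and 5 higher. Nfe2l1 had 9.17, 9.827 and 9.382 in the probiotic samples against 9.429, 8.986 and 9.008 in the high-fat samples, a difference of 0.318 (SE 0.250, limma adjusted p = 0.782) with overlap. Other Nfe2l1 probe sets gave 0.275 and -0.215. Its binding partner Mafg had 0.499 (SE 0.368). Nfyb, a subunit of NF-Y, was the only regulator tested with an unadjusted p under 0.05 (limma, 0.0433). It had 8.452, 8.479 and 8.462 against 8.397, 10.105 and 9.621, so high-fat sample 1 lay with the probiotic samples, and another probe set gave -0.299 in place of -0.910.

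Among 13 genes of ubiquitin activation and substrate delivery tested, 5 were lower and 8 higher by the brightest probe set, none of those with an unadjusted p under 0.05. Dimmer probe sets of the chaperone Bag6 and of Nploc4, a cofactor of the p97 segregase, did have one, both lower in the probiotic group without overlap. They had -1.76 for Bag6 (limma unadjusted p = 0.00461) and -1.04 for Nploc4 (limma unadjusted p = 0.0215), both with an adjusted p of 0.726. The brightest probe sets of these genes had -0.0427 and -0.0497. The activating enzyme Uba6 had a difference of 0.370 (SE 0.236) and the shuttle Ubqln4 of 0.331 (SE 0.233). Zfand2a, a stress-induced protein that binds the proteasome, had 7.65, 12.71 and 8.578 in the probiotic samples against 8.132, 8.569 and 8.435 in the high-fat samples. Probiotic sample 2 alone was high, and the difference of 1.27 has a 95% interval of -1.07 to 3.61. The related Zfand5 and the small Maf factor Maff, which lay below the signal filter, were picked after their values were seen. Zfand5 had 12.522 in probiotic sample 2 and 10.823 to 11.145 in the other 5 samples, and Maff had 9.909 in that sample and 4.543 to 5.738 in the others. This is the sample with the largest Actb gap and with the highest value of 15 of the 41 proteasome genes.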

How the data were processed

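Total RNA (8 ug, Trizol) from 6 liver samples was labelled with biotin for Affymetrix arrays of 1 colour, as the labels' protocols state. Per the deposited table, each value is a linear intensity of a probe set on an array. How it was computed is not given in the sources used here. Its mean without the top and bottom 2% was 499.4 to 499.9 on every array, so depth enters only as signal and array number.

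Intensities were turned into log2(intensity + 16) and quantile normalized over 31099 probe sets, of which 57 are controls. Folds on this scale understate changes of dim probe sets. Probe sets at or above the 40th percentile of the mean were tested (18625), which kept all 41 member genes and 51 of 55 member probe sets. Groups, taken from titles, were compared by limma (version 3.58.1, R 4.3.3; lmFit, eBayes with trend, two-sided, Benjamini-Hochberg over all probe sets tested, threshold 0.05). Intervals are for single genes. The brightest probe set stands for a gene, and levels of different probe sets are not compared. Gene names are those of the platform annotation, matched by identifier to RefSeq GRCr8 for all 55 member probe sets. Every member gene is named, with values per sample for the smallest p in each role, the 3 smallest in each direction, and Psmb5, Psmb7, Psmd14, Psme1 and Psme2. Of each pathway list the 3 genes of smallest p are named, with a fixed set of others. Members and lists were chosen with earlier results of these data known. The scripts were tested on simulated data. Alternatives covered scaling, filter (none, 60th percentile), pseudocount (1, 64), variance model, array weights, replicate block, the Actb gap, probe set choice and left-out samples. Figures were drawn with matplotlib 3.10.9.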

Additional observations from a re-analysis of the deposited data

How the results depend on the processing

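No member probe set passed the adjusted test in any of 18 alternative fits. The count at an unadjusted p under 0.05, 2 as reported, was 0 with median centring, 1 without normalization between arrays, 1 with the 60th percentile filter, 0 with eBayes without trend and 1 with a plain t-test of each probe set. Of all probe sets, 5.13% to 7.57% were under 0.05 in these fits. With single samples left out the member count ranged from 0 to 5, against 4.27% to 9.51% of all probe sets. The median difference over the members kept its sign throughout. It was -0.0220 with median centring, and -0.158 to -0.0290 with single samples left out. Adjusted for the Actb gap it was -0.200 in place of -0.0808, and the lid was -0.254 in place of -0.0128. The core was -0.237 in that fit, above the lid. Median centring took the ATPases to 0.0102, the lid to 0.0624 and the activators to 0.0215, within the spread between samples. The median of all genes tested was 0.041 with median centring and 0.0101 with the Actb gap, against 0.0106 as reported. With the replicate number as a block 3 member probe sets had an unadjusted p under 0.05, against 8.2% of all probe sets. In that fit 4 of all probe sets passed the adjusted test, as without the block. Deviations of same-numbered samples correlated at 0.144, 0.027 and 0.0774, all positive. Probiotic sample 2 correlated better with high-fat sample 3 (0.0675) than with high-fat sample 2. Each of the other samples correlated best with its own number. Whether the numbers mark pairs cannot be told from these values, and the main fit did not use them. The 3 arrays per group limit the precision, with a median SE of 0.186 for the members and 0.274 for all genes tested.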
